A study of Mus musculus with 15 samples.

Results

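The neural stem cell identity genes described here are Sox2, Sox9, Msi1, Msi2, Prom1, Pax6 and Nr2e1, a set of transcription factors, RNA-binding proteins and a surface marker by which neural stem cells are commonly recognised. They were followed over the first day of differentiation of adult mouse neural stem cells through every array probe set annotated with 1 of these symbols and with no other. Of the 7 genes, 6 were found in that way, with 13 of the 22626 probe sets other than controls. Nr2e1 has no probe set under its symbol in the annotation used here and is not analysed. Of several probe sets the one with the highest mean stands for its gene, and all 6 genes lay above the level required for testing, the 40th percentile of probe set means (0.51 on the log2 scale).

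Gene expression was measured on an Affymetrix mouse array in 15 samples of stem cells from the subventricular zone, the wall of the lateral ventricle where neurons and glia are still generated in adult mice. The cells came from 6-month-old female C57Bl6/J mice and had been passaged 5 to 7 times as neurospheres, floating colonies grown from single cells. The groups hold 5 samples each: undifferentiated cells growing in bFGF and EGF, and cells collected 12 h or 24 h after transfer, without these factors, to poly-D-lysine and medium with 5% serum. Loss of the factors, serum and attachment came together and cannot be told apart, and no label says whether the 5 samples of a group were separate cultures or animals, so the p-values reflect a spread between samples that may be technical.

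As background, Sox2 is an HMG-box transcription factor that keeps neural progenitors undifferentiated, and Sox9 is a relative of another Sox subgroup that is needed for the stem cell state and later for glial fate. Msi1 and Msi2 are paralogous RNA-binding proteins that repress translation of messages such as Numb and Cdkn1a, which favours Notch signalling and division. Prom1 encodes prominin-1 (CD133), a membrane glycoprotein of the apical surface and primary cilium, found on quiescent stem cells and on ependymal cells. Pax6 is a paired-box transcription factor of radial glia and of progenitors of olfactory bulb interneurons. All of them are used as markers of the stem cell state, and several stay on in mature glia or ependyma.

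The deposited values are logarithms of MAS5 signals and were put on a log2 scale. Their zero point is not known, so a level of one gene is not set against that of another. For all tests limma was fitted over 7909 genes with Benjamini-Hochberg adjustment, a gene was called at an adjusted p under 0.05, and errors of differences are standard errors with n = 5 per group. In bulk RNA, fewer cells of a type and less RNA per cell cannot be told apart.

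The arrays carry 4 features that bear on the results below. In 13 of 15 samples the title carries another array code than the array file, and 8 samples would change group if sorted by file code. The groups follow the titles. Sorted by file code, limma called 0 members and 0 of 7909 genes at 12 h, at 24 h or between the times, with an unadjusted p under 0.05 for 81, 118 and 21 genes. The title codes carry 3 suffixes, here A, B and C, and the arrays of suffix C had the lowest array medians in each group, down to 0.95 in 24 h cells, while the undifferentiated array of that suffix had 1.11 and the other undifferentiated arrays at least 1.33. The suffixes are unevenly spread: suffix C holds 2 of the 24 h arrays but 1 of the 12 h and 1 of the undifferentiated arrays. The only 24 h array of suffix A is 24 h replicate 1. Differences within suffix C, and 24 h differences within suffix A, therefore rest on 1 array on at least 1 side. The 3'/5' ratio of the beta-actin control probe sets, which rises when RNA is shorter or labelling stops early, averaged 1.95 ± 0.238 in undifferentiated cells, 2.36 ± 0.148 at 12 h and 2.78 ± 0.365 at 24 h (SD over 5 arrays). The two-sided exact permutation p was 0.0159 for 12 h and 0.00794 for 24 h cells set against undifferentiated ones, with adjusted p = 0.0714 for both over 9 tests. The same ratio for Gapdh averaged 1.19 ± 0.207 in undifferentiated cells, 1.29 ± 0.0772 at 12 h and 1.34 ± 0.0788 at 24 h, with exact permutation p = 0.341 and 0.151 (adjusted p = 0.384 and 0.333), and the covariate fits below use the actin ratio alone. Over 7909 probe sets the log2 levels of 12 h replicates 3 and 4 had differences with an SD of 0.150, the smallest of all within-group pairs, followed by 0.277 for 24 h replicates 2 and 3.

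The sequences upstream of the members that rose are shown for Sox2 and Prom1, the called members with an entry among the RefSeq promoters used here (build GRCm38.p6, 250 bases before to 50 after each annotated start). The Sox2 promoter lies at chr3:34649745-34650044 on the plus strand. Prom1 has a pair of annotated starts on the minus strand, with promoters at chr5:44101687-44101986 and chr5:44094719-44095018. Sequences are written 5′ to 3′ along the strand of the gene, and capitals mark matches to 1 of 4 motifs searched on both strands: the SOX cores ACAATG and ACAAAG, the RBPJ core TGGGAA, through which Notch signalling acts, and the E-box CAGCTG of bHLH factors.
Sox2: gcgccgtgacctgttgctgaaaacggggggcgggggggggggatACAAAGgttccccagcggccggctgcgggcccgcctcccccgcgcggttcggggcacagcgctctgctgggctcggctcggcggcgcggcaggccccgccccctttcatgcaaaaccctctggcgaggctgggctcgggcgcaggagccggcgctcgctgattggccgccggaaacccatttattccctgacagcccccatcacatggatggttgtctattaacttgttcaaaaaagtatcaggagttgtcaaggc
Prom1, upstream start: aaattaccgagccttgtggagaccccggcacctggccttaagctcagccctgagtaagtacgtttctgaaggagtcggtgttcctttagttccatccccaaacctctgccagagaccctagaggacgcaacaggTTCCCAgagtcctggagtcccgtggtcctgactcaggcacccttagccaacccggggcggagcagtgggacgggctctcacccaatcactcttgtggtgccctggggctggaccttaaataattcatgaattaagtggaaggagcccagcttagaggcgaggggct
Prom1, downstream start: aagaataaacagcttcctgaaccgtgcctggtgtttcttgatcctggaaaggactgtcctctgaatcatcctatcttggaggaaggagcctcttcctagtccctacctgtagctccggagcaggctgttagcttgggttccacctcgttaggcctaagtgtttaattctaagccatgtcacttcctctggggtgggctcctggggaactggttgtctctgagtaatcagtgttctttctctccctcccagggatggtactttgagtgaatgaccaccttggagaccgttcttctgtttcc
The Sox2 promoter held 1 match, ACAAAG, and no RBPJ core. The upstream Prom1 promoter held 1 RBPJ core on the opposite strand, read as TTCCCA, and the downstream one held none of the 4 motifs. Of 32851 promoters of the same length, 12.6% held ACAATG, 18.7% ACAAAG, 25.6% TGGGAA and 16.3% CAGCTG, so single matches of this kind are common. The Sox2 promoter had 27 CpG dinucleotides and the Prom1 promoters 10 and 4, beside a median of 7 over all promoters. A match is a description of letters and does not show that a factor binds there.

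By 24 h, 3 of the 6 measured identity genes were higher than in undifferentiated cells and none was lower by the test: Msi1 2.47-fold, Prom1 2.05-fold and Sox2 2.04-fold. At 12 h, Msi1 was already 1.88-fold higher, and it was the only member to pass. Pax6 and Sox9 had positive differences and Msi2 a negative one at 24 h, none of which passed. Limma called 7.86% of all tested genes at 12 h (3.3% higher, 4.56% lower) and 32.1% at 24 h (12.7% higher, 19.4% lower), so 1 of 6 and 3 of 6 called members stand beside those shares. Centring each array on its median, or quantile normalisation, moved the share of higher among all 24 h calls to 56.3% or 54.7%, beside 39.6% without it, and Msi1, Prom1 and Sox2 stayed called. The median log2 difference of the members was 0.33 at 12 h and 0.82 at 24 h. For all tested genes the median was 0.0045 and -0.060. The members and the lists below were chosen with earlier results of these data known. Their counts and medians are therefore descriptions and no independent test.

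**Figure D1:**
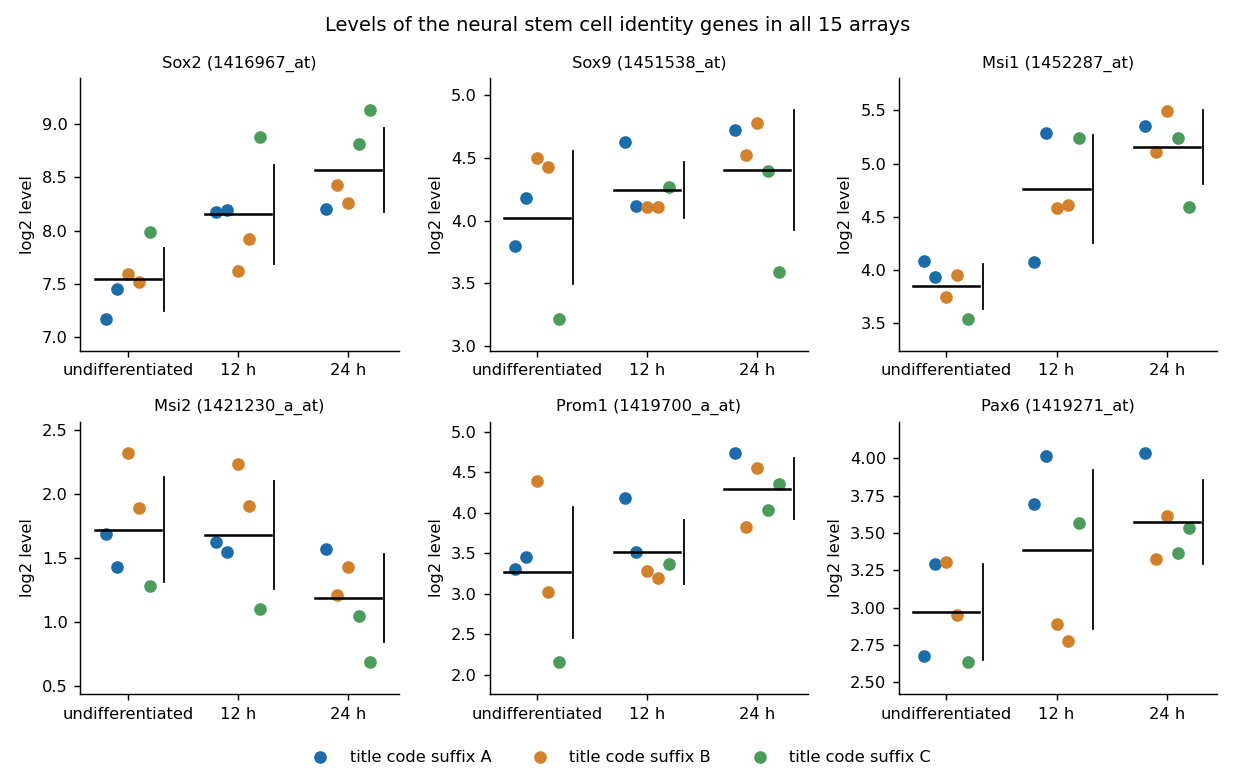
Log2 level of the leading probe set of each identity gene in every array (points, coloured by title code suffix), with group means (horizontal lines) and SD (vertical lines), n = 5 per group. Sox2, Msi1 and Pax6 lay higher in all 24 h arrays than in any undifferentiated array, while the groups of Prom1, Sox9 and Msi2 overlap.

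Sox2 (probe set 1416967_at; chromosome 3, 34649995 to 34652461 in GRCm38.p6) had log2 levels of 7.16, 7.45, 7.59, 7.51 and 7.99 in the 5 undifferentiated arrays, 8.18, 8.19, 7.62, 7.92 and 8.88 in the 12 h arrays and 8.20, 8.43, 8.26, 8.81 and 9.14 in the 24 h arrays. Every 24 h array lay above every undifferentiated one, and the 12 h arrays overlapped with both. The 24 h mean was 8.57 ± 0.40 against 7.54 ± 0.30 in undifferentiated cells (SD), a difference of 1.03 ± 0.24 with a 95% interval of 0.52 to 1.53 (limma adjusted p = 0.00466). At 12 h the difference was 0.61 ± 0.24 (adjusted p = 0.115), and between 24 h and 12 h cells it was 0.41 ± 0.24 (adjusted p = 0.431).

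The arrays of suffix C had the highest Sox2 level within each group, at 8.81 and 9.14 in 24 h cells, 8.88 in 12 h cells and 7.99 in undifferentiated cells. In suffixes A, B and C taken alone the 24 h difference was 0.90, 0.79 and 0.99, and the 12 h difference 0.87, 0.22 and 0.89. The 24 h difference over all arrays, 1.03, lay above each of these, with 2 suffix C arrays among the 24 h cells and 1 among the undifferentiated ones. Sox2 rose at 12 h as well once the suffix was a block (adjusted p = 0.00716), with a block for each run of consecutive title codes (0.0200), or after quantile normalisation (0.0164). With the 3'/5' ratio of beta-actin added to the fit the 24 h difference was 0.17 ± 0.32 (adjusted p = 0.768), so that the Sox2 rise was no longer called. The part of RNA length in the Sox2 difference was not tested beyond this fit, in which the ratio and the groups moved together.

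Sox9 (chromosome 11, 112782210 to 112787757), the second Sox factor of the set, had a pair of probe sets at similar levels. On 1451538_at the undifferentiated arrays read 3.80, 4.18, 4.50, 4.43 and 3.21, the 12 h arrays 4.62, 4.12, 4.11, 4.11 and 4.27, and the 24 h arrays 4.72, 4.52, 4.78, 4.40 and 3.59. The ranges of the 3 groups overlapped, and the lowest array of both the undifferentiated and the 24 h cells was of suffix C. The difference was 0.38 ± 0.25 at 24 h (95% interval -0.15 to 0.91, adjusted p = 0.261) and 0.22 ± 0.25 at 12 h (adjusted p = 0.614). On 1424950_at it was 0.33 ± 0.24 at 24 h and 0.40 ± 0.24 at 12 h (adjusted p = 0.366 and 0.394 over all probe sets). The probe sets of Sox9 correlated at r = 0.706 over the 15 arrays, and neither passed at either time. With array weights, which let uneven arrays count less, the leading probe set was called at 24 h (0.51 ± 0.17, adjusted p = 0.0219). In suffixes A, B and C taken alone the 24 h difference on the leading probe set was 0.74, 0.19 and 0.78, and the 12 h difference was 0.38, -0.35 and 1.06.

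The paralogs Msi1 and Msi2 had differences from undifferentiated cells of opposite sign, of which only those of Msi1 passed. Msi1 (1452287_at; chromosome 5, 115359059 to 115455698) had levels of 4.08, 3.93, 3.75, 3.95 and 3.54 in undifferentiated arrays, 4.08, 5.29, 4.59, 4.61 and 5.24 at 12 h and 5.35, 5.10, 5.49, 5.24 and 4.59 at 24 h. All 24 h arrays exceeded all undifferentiated ones, and at 12 h 4 of 5 arrays did, with replicate 1 at the undifferentiated level. The undifferentiated mean was 3.85 ± 0.21, the 12 h mean 4.76 ± 0.51 and the 24 h mean 5.16 ± 0.35 (SD). Msi1 rose by 1.31 ± 0.22 at 24 h (95% interval 0.84 to 1.77, adjusted p = 0.000687) and by 0.91 ± 0.22 at 12 h (0.44 to 1.38, adjusted p = 0.0230), with 0.40 ± 0.22 between 24 h and 12 h cells (adjusted p = 0.413).

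In suffixes A, B and C taken alone, Msi1 differed by 1.35, 1.45 and 1.38 at 24 h and by 0.68, 0.75 and 1.70 at 12 h. The 12 h call of Msi1 was lost without any 1 of 3 arrays, namely undifferentiated replicate 5 (adjusted p = 0.0613), 12 h replicate 2 (0.0673) or 12 h replicate 5 (0.0677), and without suffix C (0.71 ± 0.22, adjusted p = 0.131). With the actin ratio as a covariate the Msi1 differences were as large, 1.60 ± 0.39 at 24 h and 1.05 ± 0.27 at 12 h, with adjusted p = 0.0576 and 0.0545. The other probe set of Msi1, 1421409_at, lay from -0.73 to -0.43 in all 15 arrays, below the level required for testing, and gives no measure of the gene.

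Msi2 (1421230_a_at; chromosome 11, 88339382 to 88718306) had levels of 1.69, 1.43, 2.32, 1.89 and 1.28 in undifferentiated arrays, 1.63, 1.55, 2.23, 1.90 and 1.10 at 12 h and 1.57, 1.21, 1.43, 1.05 and 0.69 at 24 h. The groups overlapped, the 24 h arrays reached furthest down, and the suffix C arrays were the lowest of each group. The difference was -0.53 ± 0.23 at 24 h (95% interval -1.02 to -0.046, adjusted p = 0.0875), -0.04 ± 0.23 at 12 h (adjusted p = 0.935) and -0.49 ± 0.23 between 24 h and 12 h cells (adjusted p = 0.325). Msi2 was called lower at 24 h once the suffix was a block (-0.45 ± 0.15, adjusted p = 0.0277). In suffixes A, B and C taken alone the 24 h difference was 0.01, -0.78 and -0.41, and the value of suffix A rests on 24 h replicate 1, its only 24 h array. The second Msi2 probe set, 1421231_at, lay below the level required for testing in all 15 arrays, with a 24 h difference of -0.18 ± 0.08 (adjusted p = 0.127 over all probe sets).

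Prom1 (1419700_a_at; chromosome 5, 43993621 to 44102047) read 3.31, 3.45, 4.39, 3.03 and 2.15 in undifferentiated arrays, 4.19, 3.52, 3.28, 3.20 and 3.37 at 12 h and 4.74, 3.82, 4.55, 4.03 and 4.35 at 24 h. The undifferentiated arrays were the most uneven of any member, with replicate 3 inside the 24 h range and replicate 5 far below it. Prom1 rose by 1.03 ± 0.32 at 24 h (95% interval 0.36 to 1.70, adjusted p = 0.0209), and the 12 h difference was 0.25 ± 0.32 (adjusted p = 0.669). The difference between 24 h and 12 h cells was 0.79 ± 0.32 (adjusted p = 0.252), larger than that between 12 h and undifferentiated cells. Whether these steps differ was not tested.

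The 24 h call of Prom1 rested on few arrays. It was lost without undifferentiated replicate 4 (adjusted p = 0.0501), undifferentiated replicate 5 (0.0513) or 24 h replicate 1 (0.0536), and without suffix C (0.83 ± 0.34, adjusted p = 0.120). In suffixes A, B and C taken alone the 24 h difference was 1.36, 0.48 and 2.04, and the 12 h difference 0.47, -0.47 and 1.22. With the suffix as a block it was 1.17 ± 0.30 at 24 h (adjusted p = 0.0062), and with the actin ratio as a covariate 1.26 ± 0.57 (adjusted p = 0.183).

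Pax6 (chromosome 2, 105668896 to 105698410) had 5 probe sets, and 1419271_at was the leading one. It read 2.67, 3.29, 3.31, 2.95 and 2.63 in undifferentiated arrays, 3.69, 4.02, 2.89, 2.77 and 3.56 at 12 h and 4.03, 3.33, 3.61, 3.36 and 3.53 at 24 h. The lowest 24 h array lay just above the highest undifferentiated one, at 3.33 against 3.31, and the 12 h arrays fell into 3 above and 2 inside the undifferentiated range, the 2 being replicates 3 and 4. The difference was 0.60 ± 0.23 at 24 h (95% interval 0.11 to 1.10, adjusted p = 0.0590) and 0.42 ± 0.23 at 12 h (adjusted p = 0.271).

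Pax6 was called higher at 24 h in several other fits. The adjusted p was 0.0165 with the suffix as a block, 0.0201 after quantile normalisation and 0.0234 after median centring of the arrays, with differences of 0.69, 0.76 and 0.75. In suffixes A, B and C taken alone the 24 h difference was 1.05, 0.34 and 0.82 and the 12 h difference 0.87, -0.30 and 0.93. Without 12 h replicates 3 and 4, the lowest 12 h arrays of Pax6, its 12 h difference had to rise, and Pax6 was called at 12 h too (0.79, adjusted p = 0.0136). With these replicates averaged into 1 instead, 1 member was called at 12 h, as in the main fit. The probe set 1452526_a_at followed the leading one (r = 0.802 over 15 arrays) at levels between 0.37 and 1.23, with a 24 h difference of 0.15 ± 0.17 (adjusted p = 0.584 over all probe sets). The 3 remaining Pax6 probe sets lay from -1.22 to -0.16 in all arrays, below the level required for testing.

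**Figure D2:**
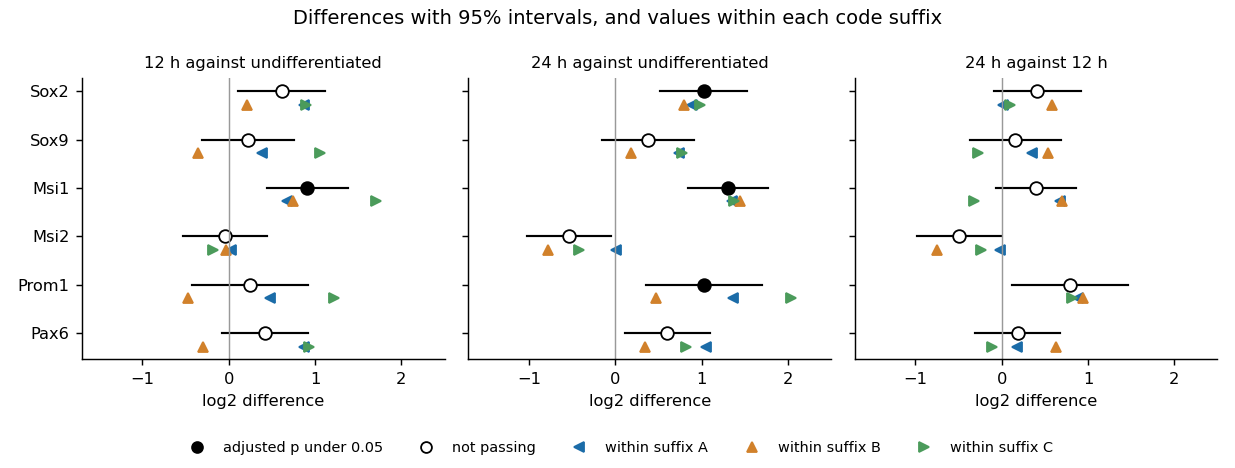
Log2 difference of each identity gene in the 3 comparisons, with 95% intervals from limma (circles, filled where the adjusted p is under 0.05; n = 5 per group) and the values within each title code suffix (triangles). At 24 h the triangles are all above 0 for Sox2, Sox9, Msi1, Prom1 and Pax6, and at 12 h the suffix B values of Sox9, Prom1 and Pax6 are below 0.

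In 3 of the 6 members (Sox2, Msi1 and Pax6) the 24 h and undifferentiated groups did not overlap, with the 24 h group higher, beside 25.1% of all tested genes in either direction and 9.04% with the 24 h group higher. At 12 h this held for 0 members, beside 8.16% and 3.41%. In the fit over all 22626 probe sets, 1 of 13 member probe sets was called at 12 h (2.71% of all), 3 at 24 h (18.6% of all) and 0 between the times (0.11% of all), and these were the leading probe sets of Msi1 at 12 h and of Sox2, Msi1 and Prom1 at 24 h. Between 24 h and 12 h cells limma called 0 of 6 members, beside 0.417% of all tested genes (33, with 1188 at an unadjusted p under 0.05). In that comparison 2 members, Msi2 and Prom1, had an unadjusted p under 0.05 (0.0478 and 0.0245).

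With the suffix as a block, the members called were 2 at 12 h (Sox2 and Msi1, higher) and 5 at 24 h (4 higher and Msi2 lower), beside 18.7% and 41.8% of all genes called in that fit. Without the arrays of suffix C they were 0 and 2 (Sox2 and Msi1), beside 0.885% and 14.3%. With the actin ratio as a covariate 0 members were called at either time, beside 2.15% and 0.43% of all genes. These values stand beside the main counts of 1 and 3.

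The arrays can also be set side by side by runs of consecutive title codes, of which 5 held an undifferentiated and a 12 h array and 4 an undifferentiated and a 24 h array. The labels do not say what a run is. Sox2 was higher in 5 of 5 runs at 12 h (0.03 to 1.01) and in 4 of 4 at 24 h (0.75 to 1.15). Msi1 was higher in 4 of 5 runs at 12 h (-0.0034 to 1.70) and in 4 of 4 at 24 h (1.05 to 1.54). For these genes the 24 h difference therefore varied little between runs, while that of Prom1 ran from -0.57 to 2.20 and was positive in 3 of 4.
Pax6 was higher in 3 of 5 runs at 12 h and 4 of 4 at 24 h (0.02 to 0.90), Sox9 in 2 of 5 and 4 of 4 (0.02 to 0.55 at 24 h). Msi2 was lower in 3 of 5 and in 3 of 4 runs (-1.10 to 0.14 at 24 h).

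**Figure D3:**
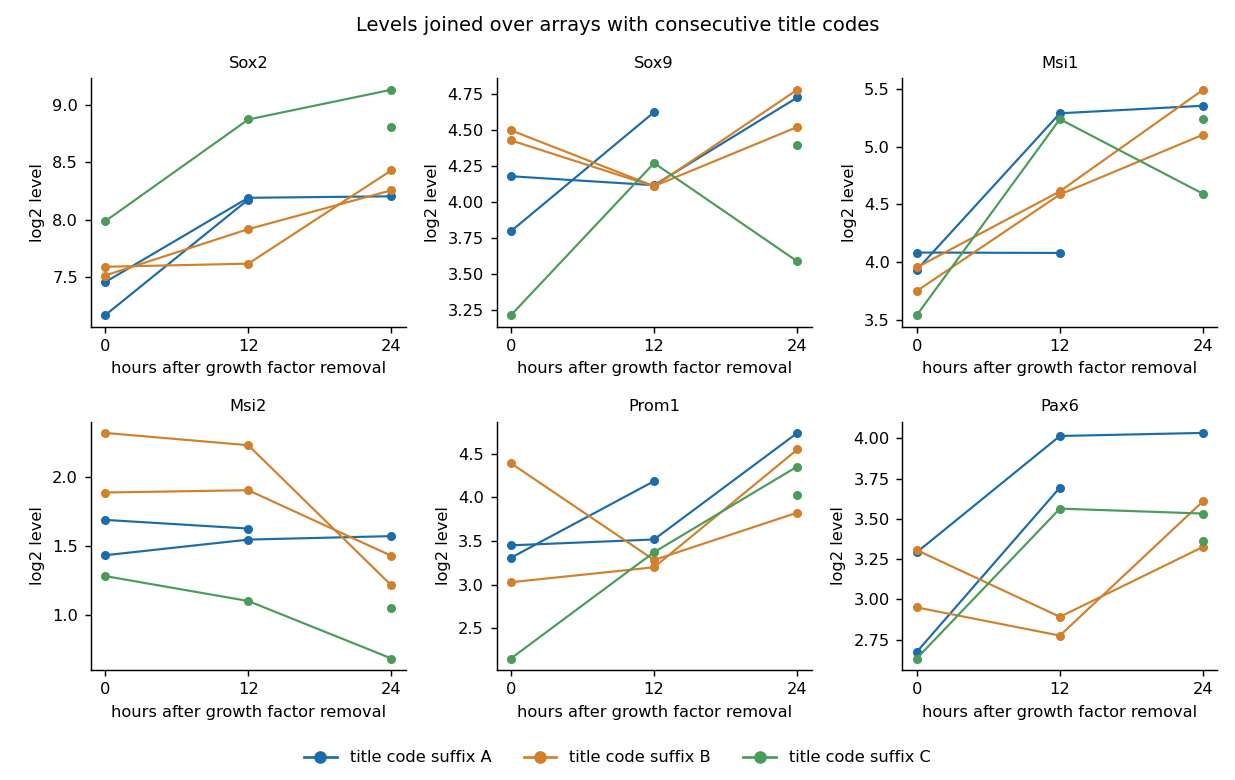
Log2 levels of the identity genes against hours after removal of growth factors, with lines that join arrays of 1 run of consecutive title codes, coloured by suffix. The lines of Sox2 and Msi1 end higher at 24 h than at 0 h in all 4 runs that hold both times, as do those of Pax6 and Sox9, while Prom1 does so in 3 of 4.

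Over the 15 arrays the members did not form a single pattern. The highest correlations between the levels of members were those of Prom1 with Pax6 (Pearson r = 0.719) and of Prom1 with Sox9 (0.663), and taken as deviations from the group means they were 0.630 and 0.625. Sox2 and Msi2 were opposed, at -0.779 for levels and -0.782 for deviations, and both stood at an extreme in the suffix C arrays. Sox2 and Sox9 had r = 0.0351. These 15 pairs are descriptions over arrays that share groups and suffixes.

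The genes most like each member over the 15 arrays, by Pearson r of log2 levels among all tested genes, were as follows. For Sox2 they were the actin-depolymerising factor Dstn (r = 0.975), the spectrin Sptbn1 (0.958) and Atxn7l3b (0.955). For Msi1 they were Foxj1, the transcription factor of motile cilia (0.959), Cdc42ep4 (0.957) and Erc1 (0.952). For Prom1 they were Zcchc18 (0.934), the microtubule-associated protein Map7 (0.898) and Dapp1 (0.888). All 9 of these genes were themselves called higher at 24 h, by 0.66 to 1.51 on the log2 scale. This follows largely from picking them for likeness to called members over the same arrays.
For Pax6 the closest were the adenylyl cyclase Adcy8 (0.945), Avl9 (0.943) and the Myc antagonist Mxi1 (0.940). Adcy8 and Mxi1 were called higher at 24 h (limma adjusted p = 0.0261 and 0.00534), and Avl9 was not called (0.0509). For Sox9 they were Pex5, Mau2 and Usp48 (0.896, 0.893 and 0.892), and for Msi2 Mtmr3, Fgf14 and Mgat1 (0.951, 0.929 and 0.921), and none of these 6 genes was called at 24 h. With 7909 genes searched, high coefficients are found for any gene, and no function is read from them.

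Of 15 other tested markers of stem and progenitor cells 0 rose and 5 fell at 24 h, with a median of -0.03, where 12.7% of all tested genes were called higher and 19.4% lower, and 0 were called at 12 h (median 0.11). The log2 difference was -2.64 ± 0.47 for Etv5, a transcription factor induced by FGF signalling, -2.05 ± 0.37 for the filament Nes, -1.72 ± 0.25 for the Notch effector Hes1, -1.49 ± 0.45 for the cyclin Ccnd2 and -1.08 ± 0.24 for the EGF receptor Egfr (limma adjusted p from 0.000295 to 0.0183). The groups of all 5 were apart, as were those of 25.1% of all tested genes in either direction. These 5 were named because they were called, so separate groups follow largely from that choice. Nes ranged from 3.47 to 4.88 in 24 h arrays and from 5.99 to 6.68 in undifferentiated ones. Hes5, another Notch effector, had 0.55 ± 0.35 (adjusted p = 0.240), and the radial glial lipid-binding protein Fabp7 0.54 ± 0.36 (0.269), both not called.

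Among the other Sox genes, 2 of 9 tested rose and 2 fell at 24 h (median 0.05), and 0 were called at 12 h (median -0.03). Of all tested genes, 12.7% were called higher and 19.4% lower at 24 h, and the counts of Sox genes are near these shares. Sox10, a factor of the oligodendrocyte lineage, rose by 2.66 ± 0.56 and Sox4, a factor of immature neurons and glial precursors, by 1.05 ± 0.25. Sox3, of the same Sox subgroup as Sox2, fell by 0.99 ± 0.23 (adjusted p = 0.00515) and Sox11 by 0.80 ± 0.26 (0.0272). Sox2 and Sox3 thus differed in direction at 24 h, each by its own test. Sox1, also of that subgroup, lay below the level required for testing, with means of -1.03 in 24 h cells and -0.75 in undifferentiated cells.

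Reported targets of the members moved in both directions. Of 13 tested, 5 rose and 4 fell at 24 h (median 0.29), beside 12.7% of all tested genes called higher and 19.4% lower. At 12 h 1 rose and 1 fell (median 0.40), beside 3.3% and 4.56%. Cdkn1a, the cell cycle inhibitor p21 whose message Msi1 represses, fell by 1.53 ± 0.26 at 24 h (adjusted p = 0.000827) and by 0.96 ± 0.26 at 12 h (0.0362), and its levels ran from 4.91 to 5.79 in 24 h arrays and from 6.12 to 7.41 in undifferentiated ones. Numb, another message bound by Msi1, had 0.27 ± 0.17 at 24 h and was not called (limma adjusted p = 0.247). Msi1 represses translation, which RNA levels of Cdkn1a and Numb do not measure. Gfap (3.35 ± 0.67), Aqp4 (2.32 ± 0.44) and S100b (1.49 ± 0.42), astrocyte genes reported downstream of Sox9 or its partners, rose at 24 h, as did Mmd2 and Apcdd1, while Nes, Egfr and Ccnd1 fell. Several of these genes are also markers of astrocytes or of dividing progenitors and stand in more than 1 list.

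**Figure D4:**
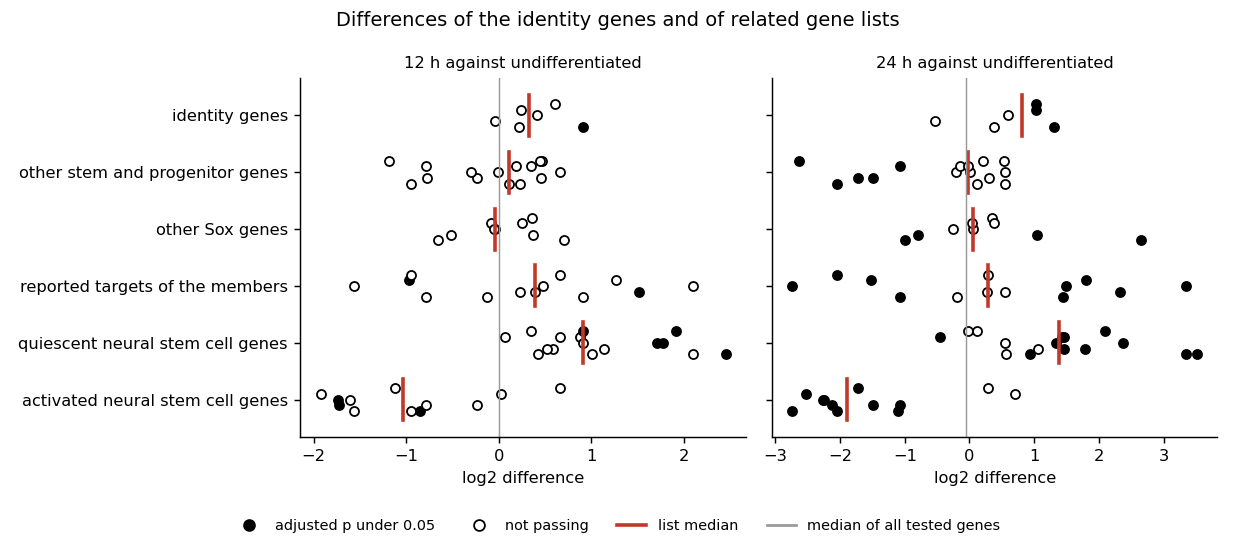
Log2 difference of every tested gene of the identity set and of 5 related lists at 12 h and 24 h (points, filled where the limma adjusted p is under 0.05; n = 5 per group), with each list's median (red) and the median of all tested genes (grey). At 24 h the quiescent list lies mostly above 0 (median 1.38) and the activated list mostly below (median -1.89). The identity genes have a median of 0.82. All lists were chosen with earlier results of these data known, and some genes stand in more than 1 list.

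Lists of genes known from quiescent and from activated neural stem cells moved apart. Because these lists were chosen with earlier results of these data known, their counts are descriptions. The counts below stand beside 12.7% of all tested genes called higher and 19.4% lower at 24 h, and 3.3% and 4.56% at 12 h. Of 16 quiescent genes 10 rose and 1, the glutamate transporter Slc1a2, fell at 24 h (median 1.38), and 5 rose at 12 h (median 0.91). The inhibitor of bHLH factors Id4 rose by 3.52 ± 0.39, clusterin (Clu) by 2.37 ± 0.37, Id3 by 2.09 ± 0.50, the gap junction protein Gja1 by 1.45 ± 0.33 and cystatin C (Cst3) by 1.43 ± 0.38, and Gfap is in this list too. Of 12 activated genes 0 rose and 10 fell at 24 h (median -1.89), and 3 fell at 12 h (median -1.03). Among them, the log2 difference was -2.74 ± 0.59 for cyclin D1 (Ccnd1), -2.27 ± 0.46 for the mitotic kinase Cdk1, -2.12 ± 0.46 for the ribonucleotide reductase subunit Rrm2 and -1.11 ± 0.24 for the transcription factor E2f1. The called identity genes were higher, as were the called genes of the quiescent list other than Slc1a2, and the median was also positive in the oligodendrocyte (2.33), astrocyte (1.45) and ependymal (0.43) lists. Gfap, Gja1 and Slc1a2 stand in both the quiescent and the astrocyte list. Of the activated list, Nes, Egfr and Ccnd2 also stand among the other stem and progenitor genes. Nes, Egfr, Ccnd1 and Dlx2 also stand among the reported targets. The falls in these lists are therefore partly the same values. No test of likeness to a list was made.

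Markers of other cell types moved with the same contrast and their part in the results was not tested. Counts of markers that rose or fell are of tested genes, beside 12.7% of all tested genes called higher and 19.4% lower at 24 h. Summed linear levels take all markers on the array: 9 oligodendrocyte, 7 astrocyte, 8 neuroblast and neuron and 6 ependymal ones. Such a sum is carried mostly by the markers with the highest values, and levels of different genes are not comparable here. It is given as a description only. Of 8 tested oligodendrocyte markers 5 rose at 24 h: Mbp (3.53 ± 0.98), Sox10, Pdgfra (2.55 ± 0.57), Mag (2.36 ± 0.61) and Cnp (2.29 ± 0.47). The sums were 1291 to 3744 in 24 h arrays and 932 to 1556 in undifferentiated ones. Olig1, the marker with the highest mean in undifferentiated cells (9.71), was not called at 24 h (0.37 ± 0.28, limma adjusted p = 0.332). Of 7 astrocyte markers 4 rose and 1, Slc1a2, fell, with sums of 1066 to 2517 and 428 to 781. Slc1a2 had a 24 h mean of 0.32, below the level required for testing. Only 3 of the 8 neuroblast and neuron markers on the array were tested, and 2 of these rose, namely Dcx (1.69 ± 0.36) and Tubb3 (0.67 ± 0.21). Stmn2, Dlx5, Dlx6, Gad2 and Rbfox3 lay below the level required for testing. The sums over all 8 were 11.9 to 22.3 and 9.48 to 20.0. Ependymal cells carry Prom1, and of 5 tested ependymal markers 3 rose at 24 h: Foxj1 by 1.51 ± 0.25, S100a6 by 1.93 ± 0.47 and Rsph1 by 0.34 ± 0.09. Rsph1 passed the level required for testing only through its 24 h mean of 0.78, beside 0.46 at 12 h and 0.43 in undifferentiated cells. The ependymal sums had a median of 174 in 24 h arrays and of 142 in undifferentiated ones, with highest values of 185 and 216. Cd24a, the ependymal marker with the highest mean in undifferentiated cells (7.17), was not called at 24 h (-0.20 ± 0.20, limma adjusted p = 0.463). It also stands among the other stem and progenitor genes. The sums mostly follow Cd24a and give no measure of the rise of Foxj1, S100a6 and Rsph1. Foxj1 ranged from 3.05 to 4.33 in 24 h arrays and from 2.10 to 2.64 in undifferentiated ones, and it was also called at 12 h (0.96 ± 0.25, adjusted p = 0.0308).
All 8 microglia markers lay below the level required for testing in the mean of every group, with sums of 6.57 to 6.87 in 24 h arrays and 6.55 to 6.94 in undifferentiated ones. Of 8 endothelial and pericyte markers only Pdgfrb passed that level (1.97 ± 0.23 at 24 h), and the endothelial genes Pecam1, Cdh5, Kdr, Tek and Cldn5 did not. Pdgfrb had means of 1.72 at 24 h, 0.43 at 12 h and -0.24 in undifferentiated cells. It thus entered the test only through the group where it was high.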

How the data were processed

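The 15 arrays came as a table of 1 value per probe set and array that the authors deposited. Per the submitters' processing notes MAS5 was used; no version, setting or scaling is recorded in the labels. The authors' deposited values are on a log10 scale as judged from the hybridisation spike-ins, along which the value increased with a slope of 1.07 ± 0.0655 per log10 step of nominal concentration (mean and SD of 15 arrays). They were multiplied by 3.32 to give log2 values, with no further normalisation and no pseudocount. Array medians ran from 0.287 to 0.453 on the log10 scale. Precision is limited by the 5 arrays of a group.

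Gene names came from the platform annotation: of 22626 probe sets other than controls, 20380 had 1 symbol, 691 had several and 1555 had none here. The probe set of highest mean was kept for each gene, and the 7909 of 12393 genes above the 40th percentile of probe set means were tested with limma 3.58.1 (R 4.3.3), all 15 arrays in 1 fit with a mean per group, a variance trend and Benjamini-Hochberg adjustment. A second limma fit covered all probe sets. The fits were tested on simulated data. Array quality was compared with exact permutation tests (scipy 1.17.1).

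Groups follow the sample titles. The labels carry no replicate numbers, so replicates are numbered in accession order and pair nothing. The title code suffix and runs of consecutive title codes served as blocks. The members and lists were chosen with earlier results of these data known. Text names all members and their probe sets, the 3 genes most correlated with each, up to 6 called genes of each other list by p at 24 h, and a few genes fixed by name, 1 of them not reported here. Promoters came from RefSeq (GRCm38.p6), with entries for 5 of the 7 genes.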

Additional observations from a re-analysis of the deposited data

Results flagged for a closer look

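Each of the 13 probe sets was examined in each of the 3 groups for an array far from the other 4 by Dixon's ratio, which by chance singles out about 1 in 20 groups, and 3 of 39 did so. In the second Sox9 probe set, 1424950_at, 12 h replicate 1 stood at 4.79 on the log2 scale, above 3.91 to 4.16 in the other 12 h arrays. In the second probe set of Pax6, 1452526_a_at, 24 h replicate 4 stood at 0.37, below 0.92 to 1.11 in the other 24 h arrays. In the probe set 1421409_at of Msi1, which lies below the level required for testing, undifferentiated replicate 5 stood at -0.73, below -0.58 to -0.53 in the other undifferentiated arrays. None of the 3 is the leading probe set of its gene.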

How the results depend on the processing

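Members called at 12 h were 1 and were 2 with the suffix, or runs of codes (fixed or random), as a block or after quantile normalisation. They were 3 without 12 h replicates 3 and 4 and 1 with these averaged. They were 0 with the mean of all probe sets, the actin ratio as a covariate, file code groups or no suffix C. The mean of probe sets brings Msi1 to 0.46 because its second probe set measures no signal. At 24 h they were 3, and were 5 with each of the 3 blocks and 0 with the actin ratio or file codes. Between 24 h and 12 h they were 0, and 1 with array weights (Prom1, 1.02, adjusted p = 0.0323). Leaving out single arrays gave 0 to 1 at 12 h, 2 to 4 at 24 h and 0 to 0 between the times, and for member probe sets 0 to 1, 2 to 3 and 0 to 0.

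Some differences changed sign, among them the called 24 h difference of Prom1, under file codes; the others named here were not called. With array weights the 12 h difference was 0.075 for Msi2 and -0.061 for Prom1. Under file codes Sox9 had -0.083, -0.33 and -0.25 at 12 h, 24 h and between the times, Prom1 -0.45 and -0.26 at 12 h and 24 h, and Msi1 -0.10 and Pax6 -0.15 between the times. Between 24 h and 12 h Pax6 had -0.18 without 12 h replicates 3 and 4, and Sox2 -0.020 with the actin ratio, which gave Msi2 0.18 at 12 h. At 12 h Msi2 had 0.11, 0.00075 and 0.10 without undifferentiated replicate 3, undifferentiated replicate 4 and 12 h replicate 5, and Prom1 -0.033 without undifferentiated replicate 5; over all arrays left out singly these ran from -0.18 to 0.11 for Msi2 and from -0.033 to 0.53 for Prom1. The causes were not tested.

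Median centring and quantile normalisation moved the median of all genes at 24 h to 0.085 and 0.044, from -0.060 in the deposited scaling, and the share of higher among called genes to 56.3% and 54.7%, beside 39.6%. Between 24 h and 12 h that share was 58.8% and 28.6%, beside 15.2%. The calls of Sox2, Msi1 and Prom1 at 24 h and of Msi1 at 12 h held under both. All genes called ranged from 174 to 1005 at 12 h, 2012 to 2804 at 24 h and 1 to 362 between the times when single arrays were left out. Over the other settings they ranged from 0 to 1920 at 12 h (622 as reported), 0 to 3477 at 24 h (2536) and 0 to 649 between the times (33), with 0 in each under file codes. The labels carry no replicate numbers, so arrays could not be paired by number; the fits with runs of codes as a block, which the labels do not explain, are the nearest to a paired analysis.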
